A study of Rattus norvegicus with 28 samples.

Results

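The proteasome genes described here are the rows whose symbol begins with Psma, Psmb, Psmc, Psmd, Psme, Psmf or Psmg followed by a digit and whose mean over the 28 libraries was at least 10. Of 17002 genes, 43 carried such a symbol, and all 43 had a mean above 10. The lowest mean was 310.4 for Psmb6 and the next was 345.7 for Psmg4, so no member lay near the threshold. One of the 43, Psmc3ip, encodes a recombination cofactor and is a proteasome gene by symbol only. It is given apart, and counts are over the other 42. These comprise 13 genes of the constitutive core, the 3 inducible core genes Psmb8, Psmb9 and Psmb10, 19 genes of the regulatory particle with its assembly factors, and 7 remaining genes for activators, an inhibitor and core assembly. Psma2, Psma8, Psmb11, Psmd10, Psmg1 and Psmg3 were not analysed here.

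The rats were Sprague Dawley, polyadenylated RNA came from their lungs (the upper lobe on the right side), and the study set lungs ventilated with a constant tidal volume beside lungs ventilated with a variable one. Lungs of 2 groups were not ventilated: control_blank was uninjured (3 libraries), and control_chronic was taken 14 days after chronic injury was induced (5 libraries). Uninjured lungs were ventilated with constant volume (healthy_VCV, 4 libraries) or variable volume (healthy_noisy, 3 libraries). Lungs with acute injury formed acute_VCV (3 libraries) and acute_noisy (4 libraries), and lungs with chronic injury formed chronic_VCV (3 libraries) and chronic_noisy (3 libraries). The labels do not name the agent of injury, the length of ventilation or the age of the rats. No library came from acutely injured lung without ventilation, so in the acute groups injury and ventilation cannot be told apart against control_blank.

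The proteasome is the barrel-shaped protease that degrades proteins tagged with ubiquitin. Its core is built from rings of alpha subunits (Psma genes), which gate the entrance, and rings of beta subunits (Psmb genes), of which Psmb5, Psmb6 and Psmb7 carry the cutting sites. In cells exposed to interferon, and in many leukocytes, Psmb8, Psmb9 and Psmb10 replace Psmb5, Psmb6 and Psmb7, and the resulting immunoproteasome shapes the peptides shown on MHC class I. The regulatory particle caps the barrel: its base (Psmc genes with Psmd1, Psmd2 and Psmd4) binds and unfolds substrates, and its lid removes the ubiquitin chain. Psme1 and Psme2 form the interferon-inducible PA28 cap, Psme3 forms the nuclear PA28 gamma cap, Psme4 encodes the activator PA200, and Psmf1 encodes PI31, first known as an inhibitor of the core.

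Recovered depth ran from 6024093 to 31923838 reads per library, and values are deposited reads divided by a size factor for each library, called levels here. Differences are log2 differences ± SE from limma on log2(level + 1), and a gene is called when its p-value, adjusted over 14908 genes, is under 0.05. Levels are not per length, so they are not compared between genes. The labels do not say whether libraries of a group came from separate animals. The p-values rest on the spread between libraries, pooled over the 8 groups, which may not be that between animals. In whole lung, fewer cells of a type and less RNA per cell cannot be told apart. The first 2 digits of the library numbers in the titles, called number series here, divide the groups: series 12 held control_blank and acute_VCV, series 18 held control_chronic, and series 14 and 15 held the rest. What a series stands for is not given, and acute_VCV against control_blank is the only comparison of whole groups within a single series. The lung check genes matched 8 of 9 symbols, and none of the 8 was at 0 in every library of any group. For 18 of the 43 genes RefSeq lists pseudogenes or like-named copies (50 in all, up to 10 for Psmb3), with which reads could be shared.

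Across the 8 groups most core, inducible and regulatory particle genes were highest in the lungs with acute injury and constant ventilation. Of the 7 remaining genes 4 were highest there, while Psme3 was highest in chronic_noisy, Psmf1 in control_chronic and Psmg2 in control_blank. The group mean was highest in acute_VCV for 13 of 13 core genes, 3 of 3 inducible genes and 18 of 19 genes of the regulatory particle, the exception being Psmd1, which was highest in acute_noisy. Averaged over the core genes, the log2 level was 11.20 ± 0.06 in acute_VCV, 10.90 ± 0.13 in control_blank, 10.77 ± 0.26 in acute_noisy and 10.72 ± 0.10 in control_chronic. The averages in the other groups were lower, in healthy_VCV (10.37 ± 0.06), healthy_noisy (10.43 ± 0.11), chronic_VCV (10.45 ± 0.14) and chronic_noisy (10.46 ± 0.12). Every acute_VCV library lay above every library of the other groups for the core average, and the same held for the regulatory particle average. The regulatory particle stood at 11.29 ± 0.06 in acute_VCV against 10.83 ± 0.10 in control_blank and 10.58 ± 0.04 in healthy_VCV. Errors are SDs over the 3 to 5 libraries of a group. These averages are descriptions and carry no test. The groups with the highest core averages, acute_VCV and control_blank, make up series 12. Recovered depth was 28800053 to 31923838 reads in acute_VCV and 22277745 to 30960809 in control_blank. In the other groups it reached at most 22967405, in acute_noisy. The part of series and depth in these levels was not tested.

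**Figure D1:**
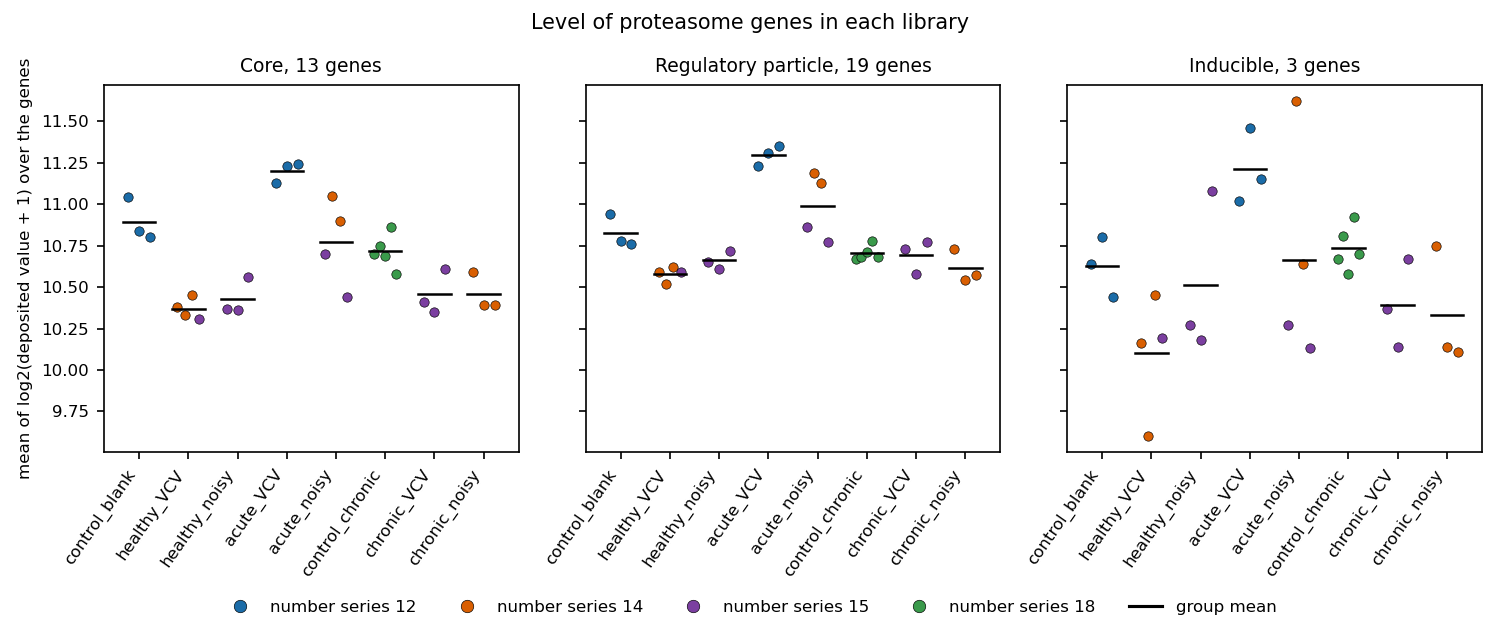
Mean log2(level + 1) over the 13 core, 19 regulatory particle and 3 inducible genes in each of the 28 libraries, with points coloured by number series and bars at the group mean. The 3 acute_VCV libraries were the highest for core and regulatory particle, the 4 acute_noisy libraries were spread, and the inducible average ran from 9.60 in healthy_VCV_057 to 11.62 in acute_noisy_047.

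Promoter sequence is shown for members on which the results turn: the 3 inducible genes and Psme2, which interferon is known to induce, and Psma5 and Psmd3, the core and regulatory particle genes with the largest called difference between acute_VCV and control_blank. Each run holds 250 bases before and 50 bases after the start site in RefSeq (build GRCr8, while the deposited values were made on rn4). Capitals mark matches, on either strand, to the core of the interferon-stimulated response element (GAAA, any 2 bases, GAAA) or TTCNNNGAA (gamma-activated sequence) in the first 4, and to TGANNNNGC (core of the antioxidant response element, the site class of Nfe2l1 and Nfe2l2) in the last 2. Psmb9 holds no match to the first 2 motifs in this window and is shown without capitals for comparison.
Psmb8 (chr20:4656982-4657281, minus strand): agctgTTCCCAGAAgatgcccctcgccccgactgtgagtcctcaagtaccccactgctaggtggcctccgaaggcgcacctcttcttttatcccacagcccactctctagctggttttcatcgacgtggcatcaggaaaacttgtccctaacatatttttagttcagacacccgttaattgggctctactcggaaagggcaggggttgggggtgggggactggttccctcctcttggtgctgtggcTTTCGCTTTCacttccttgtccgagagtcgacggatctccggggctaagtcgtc
Psmb9 (chr20:4668750-4669049, plus strand): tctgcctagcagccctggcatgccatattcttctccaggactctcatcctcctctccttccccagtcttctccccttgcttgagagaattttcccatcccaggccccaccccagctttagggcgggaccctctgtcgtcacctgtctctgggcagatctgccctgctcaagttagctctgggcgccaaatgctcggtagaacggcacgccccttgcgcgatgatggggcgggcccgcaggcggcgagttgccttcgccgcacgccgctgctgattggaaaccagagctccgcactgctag
Psmb10 (chr19:50743243-50743542, minus strand): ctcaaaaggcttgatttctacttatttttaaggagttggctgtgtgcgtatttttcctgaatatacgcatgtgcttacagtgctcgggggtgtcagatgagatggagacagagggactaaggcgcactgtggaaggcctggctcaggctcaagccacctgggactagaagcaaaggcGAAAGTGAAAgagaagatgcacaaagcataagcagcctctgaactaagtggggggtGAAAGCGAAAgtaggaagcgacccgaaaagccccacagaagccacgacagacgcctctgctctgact
Psme2 (chr15:33052702-33053001, minus strand): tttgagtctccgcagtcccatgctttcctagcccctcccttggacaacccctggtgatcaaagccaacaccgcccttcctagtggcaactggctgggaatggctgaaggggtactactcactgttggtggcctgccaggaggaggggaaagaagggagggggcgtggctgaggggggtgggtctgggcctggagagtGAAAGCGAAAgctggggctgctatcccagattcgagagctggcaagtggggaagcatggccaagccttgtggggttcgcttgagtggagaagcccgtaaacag
Psma5 (chr2:198584255-198584554, plus strand): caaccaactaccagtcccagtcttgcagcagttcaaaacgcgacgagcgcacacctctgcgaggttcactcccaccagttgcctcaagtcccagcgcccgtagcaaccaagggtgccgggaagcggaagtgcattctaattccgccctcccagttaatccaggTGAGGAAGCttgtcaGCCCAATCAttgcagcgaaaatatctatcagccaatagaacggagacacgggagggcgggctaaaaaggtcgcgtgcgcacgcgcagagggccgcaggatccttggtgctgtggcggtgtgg
Psmd3 (chr10:84139688-84139987, plus strand): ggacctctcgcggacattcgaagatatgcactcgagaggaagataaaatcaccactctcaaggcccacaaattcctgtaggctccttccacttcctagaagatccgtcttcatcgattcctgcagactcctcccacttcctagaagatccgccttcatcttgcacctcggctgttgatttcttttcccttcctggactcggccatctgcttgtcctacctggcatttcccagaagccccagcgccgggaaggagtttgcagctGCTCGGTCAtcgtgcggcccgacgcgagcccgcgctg

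The core of the interferon-stimulated response element was found in Psmb8 across the start site, in Psmb10 at 2 sites and in Psme2 at 1 site, where it reads GAAAGCGAAA, as does the second site of Psmb10. It occurred in 3.92% of the 33469 promoters of the same length, in 2 of 3 inducible genes and in 7 of the 38 proteasome genes that have an entry. TTCNNNGAA occurred in 8.87% of all promoters and in 4 of the 38 proteasome genes (10.5%): in Psmb8 and, not marked above, in Psmd3 at 3 sites, Psmc6 and Psmd7. TGANNNNGC was common everywhere, in 40.5% of all promoters, and occurred in 9 of 12 core genes (75%), 9 of 16 regulatory particle genes (56.2%) and 1 of 3 inducible genes. The second match in Psma5 overlaps a CCAAT box (CCAAT). Of the 43 members, 39 have an entry, and Psma7, Psmd6, Psmd12 and Psmd14 do not. A match describes the letters only. In the RefSeq order of genes on chromosome 20, Tap1 lies between Psmb8 and Psmb9, and Tap2 lies next to Psmb8 on its other side. Tap1 and Tap2 encode the transporter that carries proteasome products to MHC class I.

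The core genes were first compared between acute_VCV and control_blank, which share a number series. The constitutive core rose in part: 6 of 13 genes were called higher and 0 lower, with a median difference of 0.39 over the 13. Over all 42 members 20 were called higher and 1 lower, against 20.6% of all genes called higher and 16.7% lower. The members' median was 0.41 and that of all genes 0.07. The median of 63 ribosomal protein genes, chosen after the comparisons had been seen, was 0.09, with 3 called higher and 0 lower. Of the 20 higher calls, 14 were kept without each of the 6 libraries in turn. All comparisons with control_blank share its 3 libraries. On quantile-normalised values the count was 9 higher and 1 lower. Here and below, counts under other settings stand without the share of all genes called in the same fit, which can change too. Such counts show how far the calls hold, not how the members differ from all genes.

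Psma5 (ENSRNOG00000019868), an alpha subunit of the outer ring, had the largest called difference of the core. Its levels were 2191, 1667 and 1712 in control_blank and 2531, 2826 and 3113 in acute_VCV, which did not overlap. It rose by 0.61 ± 0.21, adjusted p = 0.0228. The call was lost without acute_VCV_049 (adjusted p = 0.0948) and without 3 further libraries. In the other groups Psma5 stood at 1686, 1377, 1523 and 1397 in healthy_VCV, 1369, 1281 and 1725 in healthy_noisy and 1828, 3345, 2759 and 1412 in acute_noisy. The 2 high acute_noisy values are those of the series 14 libraries 047 and 050, and they fall within or above the acute_VCV range. It stood at 1398, 1697, 1724, 1810.1 and 1519 in control_chronic, 1307, 1339.7 and 1508.8 in chronic_VCV and 1699, 1542 and 1538 in chronic_noisy, all below acute_VCV.

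Among the other core genes, Psmb2 rose by 0.50 ± 0.18, adjusted p = 0.0348 and Psma6 by 0.43 ± 0.16, adjusted p = 0.041, and both calls were lost without acute_VCV_049, without acute_VCV_045 and without 2 control_blank libraries each. Psmb7, the trypsin-like subunit, rose by 0.42 ± 0.11, adjusted p = 0.00321, and it was the only core call that was kept without each of the 6 libraries in turn, although it was lost on quantile-normalised values. Its levels were 2430.4, 2239 and 2104 in control_blank and 2929, 3074 and 3043 in acute_VCV, with no overlap. Psmb4 rose by 0.41 ± 0.14, adjusted p = 0.0217 and Psma7 by 0.39 ± 0.13, adjusted p = 0.0197. The 7 core genes that were not called had differences from 0.07 (Psmb3) to 0.39 (Psma3).

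In uninjured lungs under constant ventilation the core was mostly lower. Between healthy_VCV and control_blank, 9 of 13 core genes were called lower and 0 higher, and the 42 members had 25 lower and 1 higher, against 28.1% of all genes lower and 29.3% higher. The members' median was -0.42 and that of all genes -0.03. In the same comparison 49 of the 63 ribosomal protein genes were called lower and 2 higher, with a median of -0.82. All 7 constitutive beta subunits were called lower, against 2 of the 6 alpha subunits (Psma4 and Psma7). Psmb6, the caspase-like subunit, changed the most of the core (-1.08 ± 0.19, adjusted p = 6.83e-05), followed by the alpha subunit Psma4 (-0.94 ± 0.12, adjusted p = 2.54e-06) and the beta subunit Psmb1 (-0.80 ± 0.12, adjusted p = 1.03e-05). Of the 25 lower calls, 20 were kept without each library in turn and under each other planned setting. Groups and number series cannot be told apart here, since control_blank was of series 12 and healthy_VCV of 14 and 15.

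The levels of the 3 constitutive catalytic genes show the extent. Psmb6 stood at 591, 423 and 355 in control_blank, 209.6, 179, 246 and 212 in healthy_VCV, 276, 279.8 and 224 in healthy_noisy and 552, 466 and 502 in acute_VCV. Both ventilated uninjured groups lay wholly below control_blank and acute_VCV. Its levels were 317, 303, 289 and 214 in acute_noisy, 334, 325, 283, 389 and 274 in control_chronic, 337, 181 and 246 in chronic_VCV and 248, 216 and 222 in chronic_noisy. Psmb5, the chymotrypsin-like subunit, stood at 2392, 1825 and 1502 in control_blank, 1308, 1255, 1209 and 1342 in healthy_VCV, 1479, 1349 and 1530.2 in healthy_noisy, 2177, 2116 and 2058 in acute_VCV and 1525, 1573, 1609 and 1741 in acute_noisy. Its control_blank values spanned those of both acute groups, and it was called lower in healthy_VCV (-0.55 ± 0.12, adjusted p = 4.68e-04). In the chronic groups Psmb5 stood at 2107, 1772, 1775, 1928 and 1742, at 1304, 1446 and 1734 and at 1328, 1271 and 1179 in control_chronic, chronic_VCV and chronic_noisy. Psmb7 stood at 1827, 1780.3, 1907 and 1895 in healthy_VCV, 1963.7, 1769 and 1959.8 in healthy_noisy and 2121, 2574, 2552 and 1999 in acute_noisy. Its levels in control_chronic were 2469, 2405, 2329, 2611 and 2292, those in chronic_VCV 1747, 1934 and 2225 and those in chronic_noisy 1944, 2072 and 1848. The 3 acute_VCV libraries were thus the highest of all 28 for Psmb7, but not for Psmb5 or Psmb6, whose highest value was in control_blank_016.

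Variable ventilation of uninjured lungs also went with lower core levels. Between healthy_noisy and control_blank, 8 of 13 core genes were called lower and 0 higher, and the 42 members had 14 lower and 1 higher, against 14.6% of all genes lower and 17.5% higher. Psma4 (-0.81 ± 0.13, adjusted p = 1.48e-04), Psmb6 (-0.78 ± 0.21, adjusted p = 0.00663) and Psmb3 (-0.76 ± 0.15, adjusted p = 6.19e-04) had the largest differences, and the smallest called ones were Psmb4 (-0.36 ± 0.14, adjusted p = 0.0483) and Psmb5 (-0.37 ± 0.13, adjusted p = 0.0314). The members' median was -0.25, and 31 of 63 ribosomal protein genes were called lower and 0 higher. Without control_blank_016, the library with the highest core average of its group, 6 members were called lower and 1 higher, and the lost calls were those of Psmb2, Psmb4, Psmb5, Psmb6, Psmc3, Psmd6, Psmd14 and Psmf1.

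Set directly against each other, acute_VCV and healthy_VCV differed in nearly the whole proteasome. All 13 core genes were called higher in acute_VCV, and of the 42 members 39 were called higher and 1 lower, against 26.1% of all genes higher and 26.4% lower. The members' median was 0.83 and that of all genes -0.01. Of the 63 ribosomal protein genes 53 were called higher and 0 lower, with a median of 0.99. Psmb6 (1.26 ± 0.19, adjusted p = 1.18e-05), Psma7 (1.09 ± 0.12, adjusted p = 1.78e-07) and Psma4 (1.08 ± 0.12, adjusted p = 2.71e-07) led the core, and Psma6 (0.61 ± 0.15, adjusted p = 0.00192), Psma3 (0.57 ± 0.20, adjusted p = 0.0208) and Psma1 (0.31 ± 0.12, adjusted p = 0.0378) were the smallest. Of the 39 higher calls, 32 were kept without each library in turn and under each other planned setting. The calls of Psma1, Psma3, Psmc6, Psmd2, Psmd11, Psmb8 and Psmf1 were each lost without 1 or more libraries. This comparison shares acute_VCV and healthy_VCV with those against control_blank, so it is no independent view, and its groups are of different number series.

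**Figure D2:**
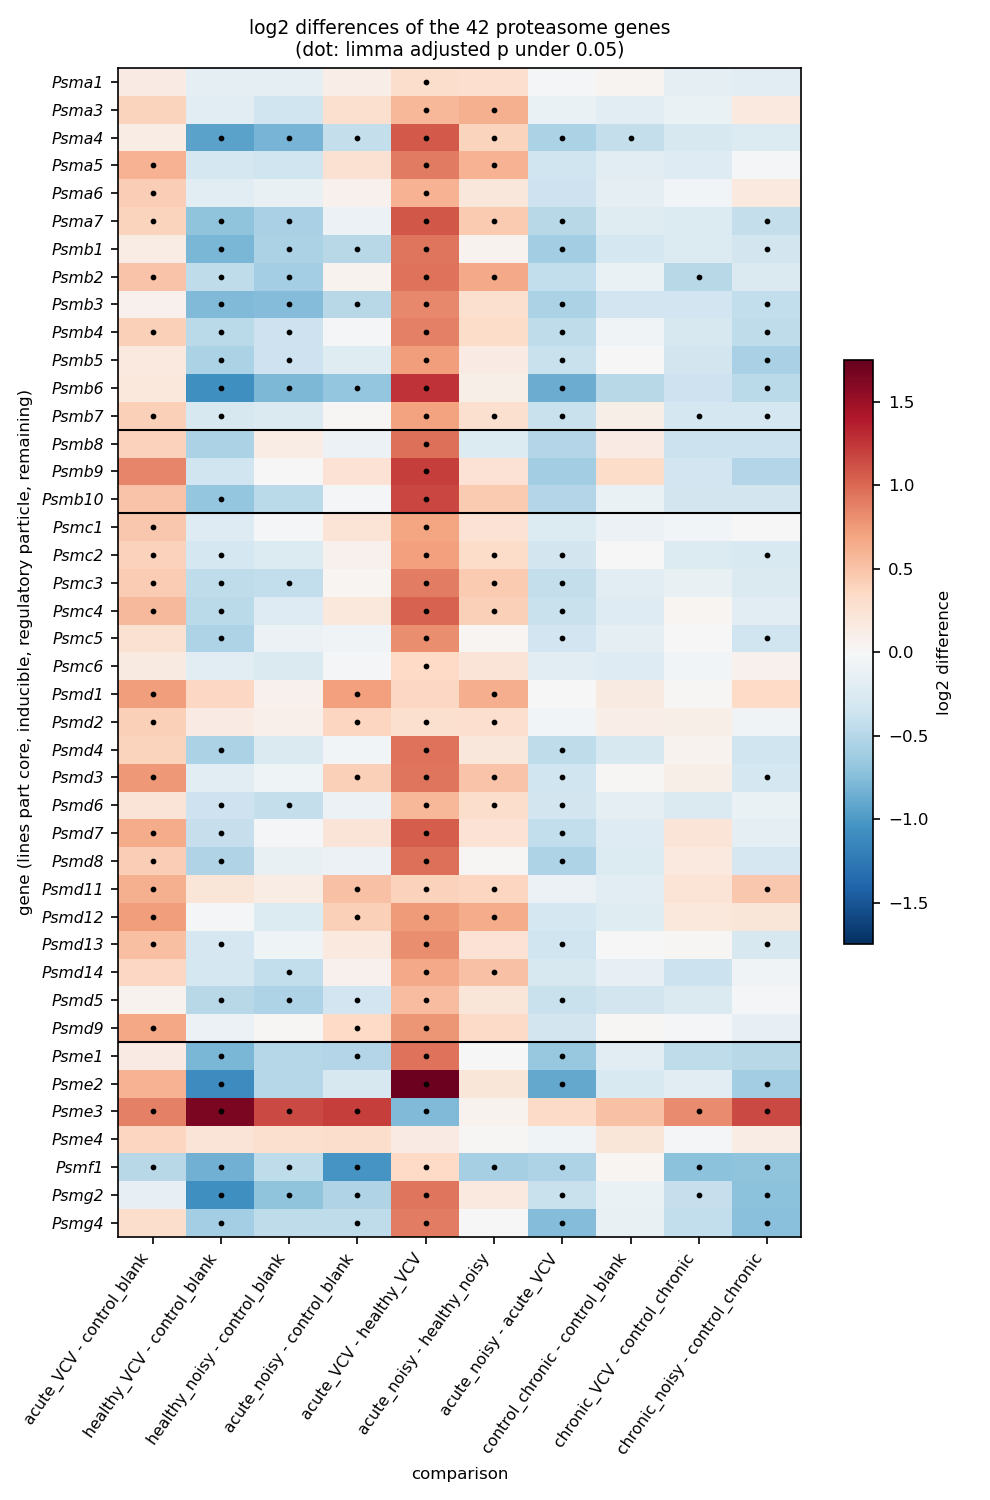
Log2 differences of the 42 genes (rows) in 10 comparisons (columns), red for higher and blue for lower in the first-named group, with a dot where the adjusted p from limma was under 0.05. The acute_VCV - healthy_VCV column has 39 higher calls and 1 lower, and Psme3 stands at 1.65 in healthy_VCV - control_blank, where 25 of the 42 genes were called lower.

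Most of the regulatory particle rose in acute_VCV against control_blank, with 13 of 19 genes called higher and 0 lower and a median of 0.44, against 20.6% of all genes higher and 16.7% lower. By site, 6 of 9 base genes, 6 of 8 lid genes and 1 of 2 assembly factors were called. Of the 13, 12 were kept without each library in turn, the exception being Psmd8. Of these 12, 8 were also kept under each other planned setting: Psmd1, Psmd3, Psmd7, Psmd9, Psmd11, Psmd12, Psmd13 and Psmc4.

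Psmd3 (ENSRNOG00000028103), a scaffold subunit of the lid, had the largest difference of the class. It stood at 2293, 2186 and 1807 in control_blank and 3518, 3399 and 3663 in acute_VCV, with no overlap, and rose by 0.76 ± 0.13, adjusted p = 9.11e-05. In healthy_VCV it stood at 1874, 1602, 1954 and 1926, in healthy_noisy at 1880.1, 2048 and 1999.7 and in acute_noisy at 2427, 3382, 2882 and 2525. All 4 acute_noisy libraries were above all control_blank and healthy libraries. In control_chronic Psmd3 stood at 2275, 1991, 1987, 2044 and 2249, in chronic_VCV at 2442, 1995 and 2369 and in chronic_noisy at 1960.0, 1503 and 1676. Psmd12, a lid subunit, rose by 0.73 ± 0.17, adjusted p = 0.00189, and Psmd1, the large scaffold of the base, rose by 0.73 ± 0.18, adjusted p = 0.00237. At the low end of the called genes were Psmd8 (0.44 ± 0.14, adjusted p = 0.0174), the base scaffold Psmd2 (0.41 ± 0.11, adjusted p = 0.00507) and the ATPase Psmc2 (0.41 ± 0.11, adjusted p = 0.00708).

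In uninjured lungs under constant ventilation part of the regulatory particle was lower. Between healthy_VCV and control_blank 10 of 19 genes were called lower and 0 higher, with a median of -0.30, against 28.1% of all genes lower and 29.3% higher. The ubiquitin receptor Psmd4 (-0.55 ± 0.15, adjusted p = 0.00281), the ATPase Psmc5 (-0.54 ± 0.12, adjusted p = 4.96e-04) and the lid subunit Psmd8 (-0.52 ± 0.13, adjusted p = 0.00169) had the largest differences, and Psmd1 was at 0.36 ± 0.16, adjusted p = 0.0627. The smallest called ones were Psmd13 (-0.29 ± 0.10, adjusted p = 0.0223), Psmc2 (-0.31 ± 0.11, adjusted p = 0.0149) and Psmd6 (-0.36 ± 0.11, adjusted p = 0.00628). Between healthy_noisy and control_blank the share called lower was near that of all genes, with 4 of 19 against 14.6%: the assembly factor Psmd5 (-0.54 ± 0.14, adjusted p = 0.00476), the lid deubiquitinase Psmd14 (-0.43 ± 0.15, adjusted p = 0.0359), the ATPase Psmc3 (-0.43 ± 0.12, adjusted p = 0.0104) and Psmd6 (-0.41 ± 0.12, adjusted p = 0.00947). Only Psmd5 of these kept its call without each library in turn.

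Between acute_VCV and healthy_VCV 18 of 19 regulatory particle genes were called higher, with a median of 0.75, against 26.1% of all genes higher. Psmd7 (1.06 ± 0.11, adjusted p = 9.88e-08), the lid partner of the deubiquitinase, the ATPase Psmc4 (1.04 ± 0.11, adjusted p = 1.78e-07) and Psmd8 (0.96 ± 0.13, adjusted p = 2.82e-06) led. Psmd11 (0.40 ± 0.12, adjusted p = 0.0073), Psmc6 (0.35 ± 0.15, adjusted p = 0.0493) and Psmd2 (0.28 ± 0.10, adjusted p = 0.0273) were the smallest calls. Psmd1 was the one gene of the class that was not called, at 0.37 ± 0.16, adjusted p = 0.0645.

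The inducible genes were spread widely within several groups. Psmb8 (ENSRNOG00000000456), the inducible counterpart of Psmb5, stood at 1710.0, 1933 and 1858 in control_blank, 1212, 1035, 1312 and 1483 in healthy_VCV, 1738, 1547 and 3011 in healthy_noisy and 2616, 2762 and 1983 in acute_VCV. The acute_VCV libraries lay above the control_blank and healthy_VCV libraries, while healthy_noisy_078 lay above all of them. Psmb8 stood at 1107, 3765, 1311 and 1521 in acute_noisy, where library 047 held the highest value of all 28 and the other 3 lay below control_blank. In the chronic arms it stood at 1795, 2454, 1626, 2720.3 and 1724 in control_chronic, 1537, 1092 and 2232 in chronic_VCV and 2652, 1261 and 1129 in chronic_noisy, which overlapped.

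Psmb9 (ENSRNOG00000000459), the counterpart of Psmb6, stood at 1320.2, 1668 and 997 in control_blank, 1083, 647, 1458 and 1053 in healthy_VCV, 1062, 999 and 2038 in healthy_noisy and 1595, 3389 and 2410.1 in acute_VCV. It stood at 1237, 3184, 1641 and 886 in acute_noisy, 1598, 1544, 1506.6, 1711 and 1751 in control_chronic, 1263, 1217 and 1383 in chronic_VCV and 1398, 1027 and 1004 in chronic_noisy. The acute_VCV values lay above those of healthy_VCV, and they overlapped those of control_blank. Psmb10 (ENSRNOG00000019494), the counterpart of Psmb7, stood at 1806, 1739 and 1429 in control_blank, 1136, 702, 1431 and 1009 in healthy_VCV, 1014, 1003 and 1635.6 in healthy_noisy and 2134, 2410.5 and 2433.6 in acute_VCV. It stood at 1365, 2576, 1903 and 1039 in acute_noisy, 1512.5, 1533, 1463, 1556 and 1531 in control_chronic, 1186, 1077 and 1396 in chronic_VCV and 1369.6, 1099.7 and 1187 in chronic_noisy. The 5 control_chronic values of Psmb10 were close together and above those of both ventilated chronic groups. The acute_VCV values were above every other group except acute_noisy.

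Against control_blank none of the 3 inducible genes was called in acute_VCV: the differences were 0.41 ± 0.36, adjusted p = 0.392 for Psmb8, 0.86 ± 0.35, adjusted p = 0.057 for Psmb9 and 0.49 ± 0.25, adjusted p = 0.12 for Psmb10. Against healthy_VCV all 3 were called higher in acute_VCV, Psmb9 by 1.21 ± 0.33, adjusted p = 0.00351, Psmb10 by 1.16 ± 0.23, adjusted p = 2.17e-04 and Psmb8 by 0.96 ± 0.34, adjusted p = 0.0203. The calls of Psmb9 and Psmb10 were kept without each library in turn, and that of Psmb8 was lost without acute_VCV_045 (adjusted p = 0.0727), acute_VCV_040 or healthy_VCV_057. Psmb10 was called lower in healthy_VCV against control_blank (-0.67 ± 0.23, adjusted p = 0.0168), a call that was lost without healthy_VCV_057 (adjusted p = 0.078), control_blank_016 or control_blank_021. No inducible gene was called in any other comparison of 2 groups.

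**Figure D3:**
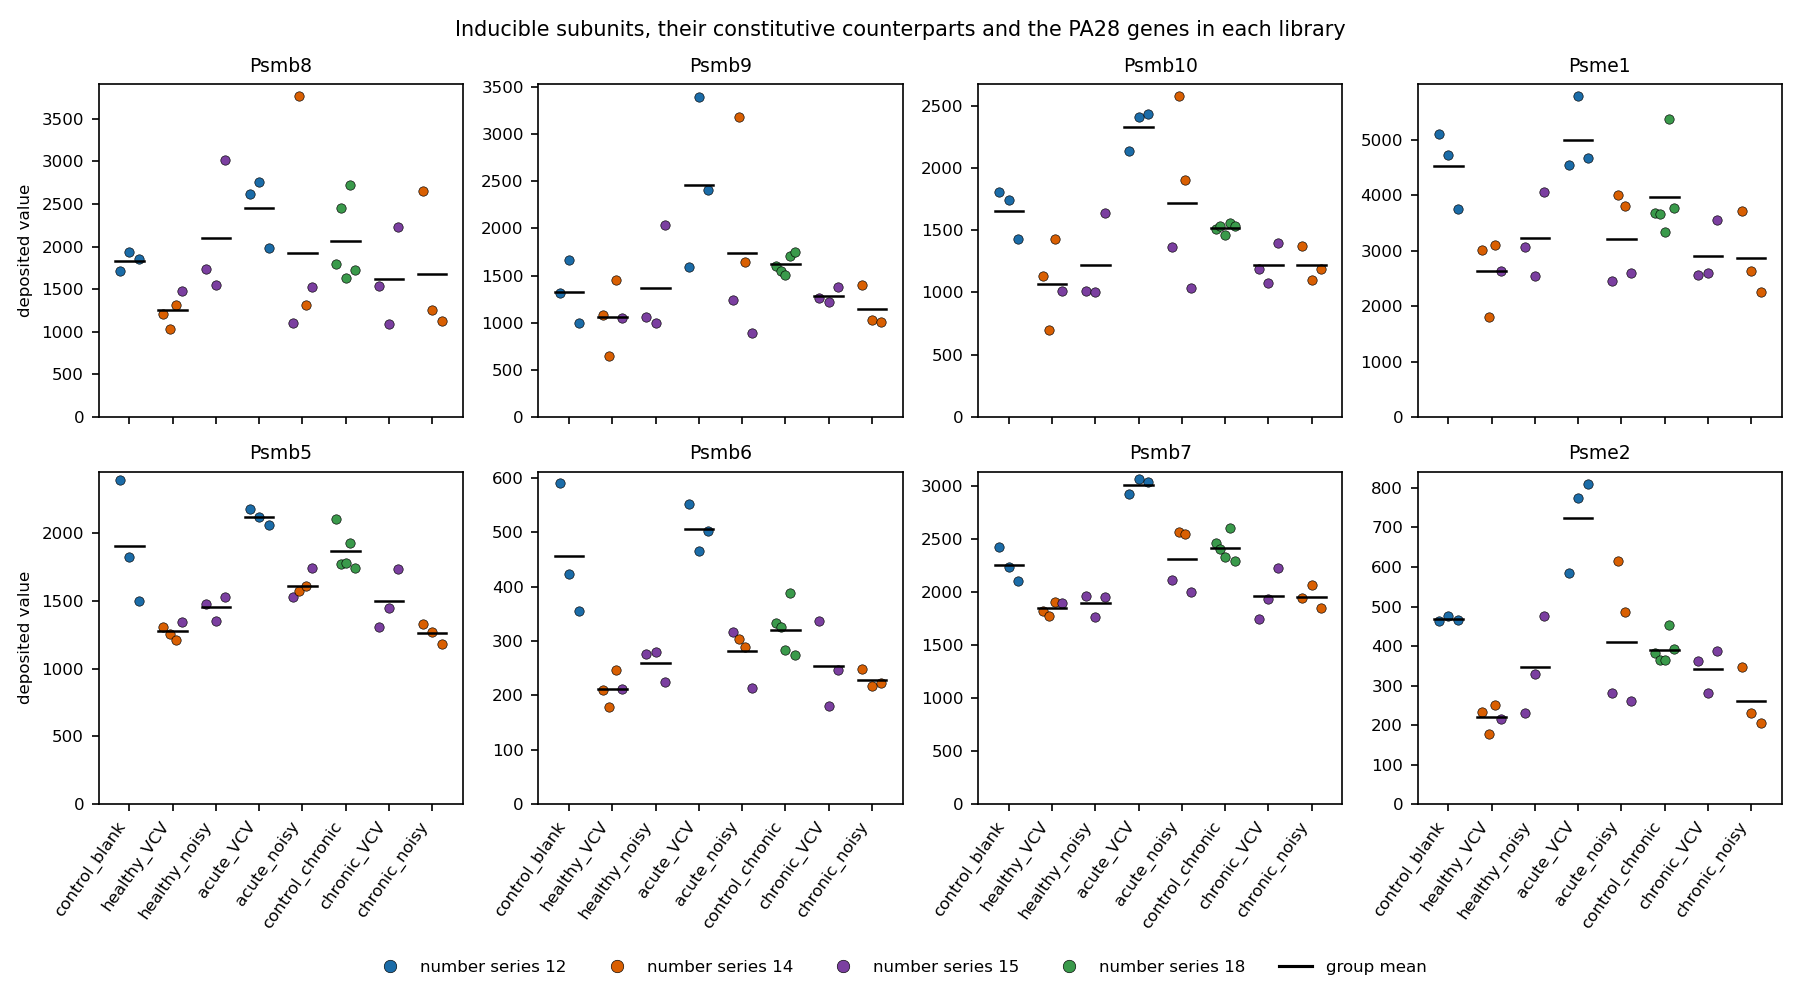
Levels in each of the 28 libraries (points, coloured by number series, bars at the group mean) of the inducible genes, their constitutive counterparts, Psme1 and Psme2, on axes that start at 0. For Psmb8 the library acute_noisy_047 stands alone at 3765, and for Psmb7 and Psme2 the group mean is highest in acute_VCV.

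The balance of inducible to constitutive genes does not depend on a library's scaling. The log2 ratio of Psmb8 to Psmb5 averaged -0.03 ± 0.41 in control_blank, -0.03 ± 0.20 in healthy_VCV, 0.20 ± 0.23 in acute_VCV and 0.08 ± 0.80 in acute_noisy. That of Psmb9 to Psmb6 averaged 1.54 ± 0.41 in control_blank, 2.27 ± 0.30 in healthy_VCV, 2.22 ± 0.67 in acute_VCV and 2.47 ± 0.65 in acute_noisy. That of Psmb10 to Psmb7 averaged -0.45 ± 0.10 in control_blank, -0.84 ± 0.39 in healthy_VCV, -0.38 ± 0.07 in acute_VCV and -0.50 ± 0.40 in acute_noisy. For all 3 ratios acute_VCV overlapped both control_blank and healthy_VCV. Between the modes of ventilation 1 ratio did not overlap: that of Psmb8 to Psmb5 averaged 0.47 ± 0.44 in healthy_noisy, with all 3 libraries above the 4 of healthy_VCV. The gap was small, from 0.14 in healthy_VCV to 0.20 in healthy_noisy, and healthy_noisy_078 stood at 0.98. The same ratio averaged 0.07 ± 0.41 in chronic_VCV and 0.31 ± 0.60 in chronic_noisy, which overlapped. The other ratios overlapped between the modes in uninjured, acutely injured and chronically injured lungs. The ratio of Psmb9 to Psmb6 was 2.34 ± 0.21 in control_chronic, and its 5 libraries lay above the 3 of control_blank. The ratio of Psmb10 to Psmb7 was -0.67 ± 0.06 there, with the 5 libraries below those of control_blank. No other separation was seen over the 3 ratios and 14 comparisons of groups. In groups of 3 to 5 libraries a separation can arise by chance. The ratios were not tested, errors are SDs, and ratios of different pairs are not comparable, since levels are not per length.

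Psme1 and Psme2, whose products form the PA28 cap together, were low and high in the same groups as most core genes. Psme2 stood at 463, 476 and 465 in control_blank, 233, 178, 251 and 216 in healthy_VCV, 231, 330.4 and 476 in healthy_noisy and 584, 775 and 809.9 in acute_VCV. The 3 control_blank libraries were nearly equal, all healthy_VCV libraries lay below them and all acute_VCV libraries above. It stood at 281, 614, 486 and 260.4 in acute_noisy, 381, 365, 366, 453 and 392 in control_chronic, 361, 281 and 387 in chronic_VCV and 348, 232 and 206 in chronic_noisy. Psme2 fell in healthy_VCV against control_blank (-1.10 ± 0.25, adjusted p = 8.12e-04) and was higher in acute_VCV than in healthy_VCV by 1.71 ± 0.25, adjusted p = 7.55e-06, the largest difference of any member there. In acute_VCV against control_blank it was not called (0.61 ± 0.27, adjusted p = 0.0769), although the groups did not overlap.

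Psme1 stood at 5107, 4722 and 3747 in control_blank, 3004, 1810.3, 3108 and 2637 in healthy_VCV, 3070.4, 2548 and 4055 in healthy_noisy and 4539, 5799 and 4679.6 in acute_VCV. It stood at 2453, 3999, 3812 and 2591 in acute_noisy, 3689, 3662, 3338, 5378 and 3764 in control_chronic, 2566, 2602 and 3559 in chronic_VCV and 3716, 2628 and 2251 in chronic_noisy. The healthy_VCV libraries lay below those of control_blank and acute_VCV, which overlapped each other. Psme1 fell in healthy_VCV (-0.80 ± 0.22, adjusted p = 0.00411) and was higher in acute_VCV than in healthy_VCV (0.94 ± 0.22, adjusted p = 0.00111).

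Psme3 (ENSRNOG00000036806) was called higher in each of the 6 ventilated groups against the unventilated group of its arm. It stood at 1253, 1537 and 1992 in control_blank and 2109.8, 2141, 2164, 2177 and 2582 in control_chronic, the 2 unventilated groups. In the ventilated lungs it stood at 5167, 4797, 4529.8 and 5180.1 in healthy_VCV, 3586, 2679.7 and 4372 in healthy_noisy, 2694, 2845 and 3104 in acute_VCV and 3351, 4326, 3624 and 3313 in acute_noisy. It stood at 3052, 5298 and 3842 in chronic_VCV and 3875, 5111 and 6219.9 in chronic_noisy. Every one of the 20 ventilated libraries was above every one of the 8 unventilated libraries. The unventilated libraries were of series 12 or 18, and the ventilated groups except acute_VCV were of series 14 or 15. Ventilation and number series thus cannot be told apart outside acute_VCV against control_blank. The share of all genes that separate in this way is not given here. Psme3 rose against control_blank in healthy_VCV (1.65 ± 0.18, adjusted p = 6.89e-07), acute_noisy (1.21 ± 0.18, adjusted p = 1.11e-05), healthy_noisy (1.15 ± 0.20, adjusted p = 2.37e-04) and acute_VCV (0.88 ± 0.20, adjusted p = 0.00125). It rose against control_chronic in chronic_noisy (1.16 ± 0.18, adjusted p = 8.66e-05) and chronic_VCV (0.83 ± 0.18, adjusted p = 0.0032). All 6 calls were kept without each library in turn and under each other planned setting that could be fitted. The number series as a covariate could be fitted only for acute_VCV against control_blank, where it cannot change the difference. The calls therefore say nothing about the series. Psme3 was the only member called lower in acute_VCV than in healthy_VCV (-0.77 ± 0.18, adjusted p = 0.00117). RefSeq lists 4 like-named copies of Psme3, so its reads are uncertain in part.

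Psmf1 changed in the opposite direction to Psme3. It stood at 1574, 1292 and 1233 in control_blank and 1455, 1201, 1349, 1485 and 1469 in control_chronic, and all ventilated libraries, from 587.1 in acute_noisy_050 to 1189.6 in healthy_noisy_078, lay below them. It fell in acute_noisy (-1.03 ± 0.13, adjusted p = 1.64e-06), healthy_VCV (-0.84 ± 0.13, adjusted p = 1.44e-05), acute_VCV (-0.49 ± 0.14, adjusted p = 0.00813) and healthy_noisy (-0.44 ± 0.14, adjusted p = 0.0189) against control_blank. It fell in chronic_VCV (-0.71 ± 0.12, adjusted p = 7.30e-04) and chronic_noisy (-0.71 ± 0.12, adjusted p = 3.22e-04) against control_chronic. Without control_blank_016 the calls in acute_VCV and healthy_noisy were lost, the latter with adjusted p = 0.123 and also without healthy_noisy_029 or healthy_noisy_061, and the former was also lost without acute_VCV_049 (adjusted p = 0.0731). As for Psme3, ventilation and number series cannot be told apart outside acute_VCV against control_blank. The share of all genes that separate in the same way is not given.

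**Figure D4:**
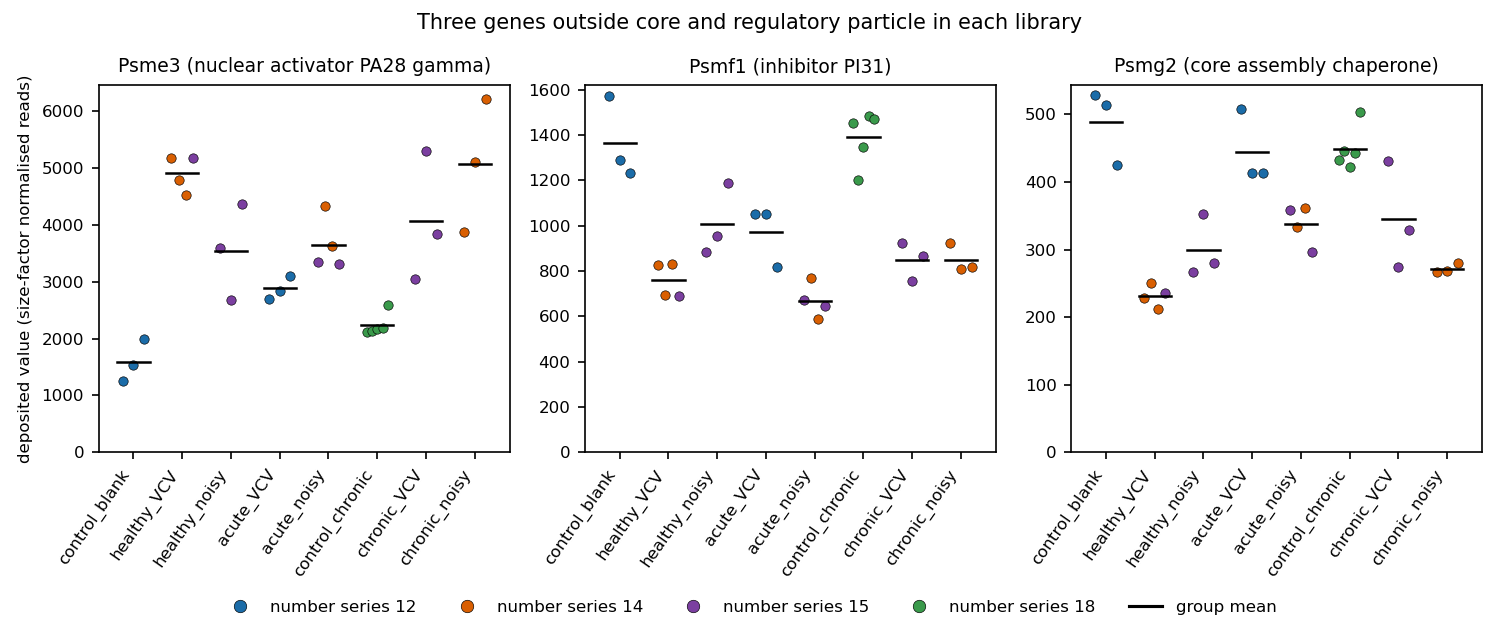
Levels of Psme3, Psmf1 and Psmg2 in each of the 28 libraries (points, coloured by number series, bars at the group mean), on axes that start at 0. All 20 ventilated libraries lie above the 8 unventilated ones for Psme3 and below them for Psmf1. Except for acute_VCV, the ventilated groups share no number series with the unventilated ones.

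The core assembly chaperones Psmg2 and Psmg4 were called lower in healthy_VCV against control_blank (-1.07 ± 0.14, adjusted p = 2.84e-06 and -0.59 ± 0.19, adjusted p = 0.0102, the latter lost without control_blank_016) and higher in acute_VCV than in healthy_VCV (0.93 ± 0.14, adjusted p = 8.89e-06 and 0.90 ± 0.19, adjusted p = 3.80e-04). Psmg2 was also called lower in acute_noisy (-0.53 ± 0.14, adjusted p = 0.00242) and healthy_noisy (-0.71 ± 0.15, adjusted p = 0.00135). Neither was called in acute_VCV against control_blank, at -0.14 ± 0.15, adjusted p = 0.491 for Psmg2 and 0.31 ± 0.20, adjusted p = 0.245 for Psmg4. Psme4 was called in no comparison, with differences between 2 groups from -0.06 to 0.37. Psmc3ip, the gene that is a member by symbol only, was called lower against control_blank in acute_noisy (-1.36 ± 0.19, adjusted p = 3.75e-06), healthy_VCV (-1.37 ± 0.19, adjusted p = 3.91e-06), healthy_noisy (-0.95 ± 0.20, adjusted p = 0.00125), acute_VCV (-0.78 ± 0.20, adjusted p = 0.0035) and control_chronic (-0.57 ± 0.18, adjusted p = 0.0335).

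In acutely injured lungs under variable ventilation members were called in both directions. Between acute_noisy and control_blank 7 members were called higher and 9 lower, against 31.3% of all genes higher and 28.4% lower, and the members' median was 0.03. The regulatory particle had 6 higher and 1 lower: Psmd1 (0.71 ± 0.16, adjusted p = 7.62e-04), the lid subunit Psmd11 (0.51 ± 0.12, adjusted p = 9.48e-04), Psmd12 (0.42 ± 0.16, adjusted p = 0.0277), Psmd3, Psmd2 and Psmd9 rose, and Psmd5 fell (-0.33 ± 0.13, adjusted p = 0.0274). The core had 0 higher and 4 lower: Psmb6 (-0.68 ± 0.19, adjusted p = 0.0043), Psmb1 (-0.49 ± 0.12, adjusted p = 0.00144), Psmb3 (-0.48 ± 0.14, adjusted p = 0.00445) and Psma4 (-0.42 ± 0.12, adjusted p = 0.00504). Psme1 was called lower (-0.52 ± 0.22, adjusted p = 0.0493), as was Psmg4 (-0.45 ± 0.19, adjusted p = 0.0457). Of the 7 libraries, left out in turn, 5 each ended the call of Psmg4, 4 each those of Psme1, Psmd12 and Psmd5, and 3 that of Psmd9, and that of Psmb6 was lost without control_blank_016 (adjusted p = 0.0558). With only these 2 groups in the fit 5 members were called. On quantile-normalised values the split was 5 higher and 10 lower.

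The 4 acute_noisy libraries differed from each other along the number series. The core average was 11.05 and 10.90 in libraries 047 and 050 of series 14, and 10.70 and 10.44 in libraries 046 and 053 of series 15. With the 2 series 14 libraries alone, 16 members were called higher and 4 lower against control_blank; with the 2 series 15 libraries alone, 1 was called higher and 10 lower. This split was chosen after the data were seen. The shares of all genes called in these 2 fits are not given here, so the counts cannot be set against them. A fit of series 15 against 14 over acute_noisy and healthy_VCV, which hold both, called 0 of the 42 members by limma (14 with an unadjusted p under 0.05), against 1.15% of all genes. In it 39 of 42 differences were below 0, with a median of -0.20, and the smallest adjusted p was 0.0544 for Psmd12.

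The comparison of acutely injured and uninjured lungs under variable ventilation depended on which acute_noisy libraries were used. Between acute_noisy and healthy_noisy 16 members were called higher and 1 lower, against 12.9% of all genes higher and 13.9% lower, with a median of 0.27. The core had 6 higher and the regulatory particle 10, led by Psmb2 (0.66 ± 0.17, adjusted p = 0.00876), Psma3 (0.63 ± 0.20, adjusted p = 0.0266) and Psma5 (0.61 ± 0.19, adjusted p = 0.0235), and by Psmd12 (0.65 ± 0.16, adjusted p = 0.00621), Psmd1 (0.63 ± 0.16, adjusted p = 0.00864) and Psmd14 (0.51 ± 0.14, adjusted p = 0.0142). The one gene called lower was Psmf1 (-0.59 ± 0.13, adjusted p = 0.00336), and no inducible gene was called. With the series 14 libraries of acute_noisy alone, 27 were called higher and 1 lower. With its series 15 libraries alone 0 members were called by limma (4 with an unadjusted p under 0.05), and 0 with all groups limited to series 15 (1 with an unadjusted p under 0.05). With the number series as a covariate 0 were called higher and 1 lower, and with only these 2 groups in the fit 0 were called (10 with an unadjusted p under 0.05). Of the 16 higher calls, 3 (Psmc3, Psmd3 and Psmd12) were kept without each library in turn, and in all 5 members were called without healthy_noisy_061, 7 without acute_noisy_047 or acute_noisy_050, and 9 without healthy_noisy_029.

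The design set variable against constant ventilation within each kind of lung. After acute injury the members were lower under variable ventilation: between acute_noisy and acute_VCV 24 were called lower and 0 higher, against 12.3% of all genes lower and 11.9% higher. The members' median was -0.39 and that of all genes -0.05, and 40 of 63 ribosomal protein genes were called lower and 0 higher. The core had 8 of 13 lower, led by Psmb6 (-0.86 ± 0.19, adjusted p = 0.00473), Psmb1 (-0.61 ± 0.12, adjusted p = 0.0024) and Psma4 (-0.56 ± 0.12, adjusted p = 0.00412). The regulatory particle had 11 of 19 lower, led by Psmd8 (-0.54 ± 0.13, adjusted p = 0.00692), Psmd4 (-0.45 ± 0.15, adjusted p = 0.031) and Psmd7 (-0.43 ± 0.11, adjusted p = 0.0089). Psme2 (-0.89 ± 0.25, adjusted p = 0.0148), Psmg4 (-0.75 ± 0.19, adjusted p = 0.00848), Psme1 (-0.67 ± 0.22, adjusted p = 0.0336), Psmf1 (-0.54 ± 0.13, adjusted p = 0.00692) and Psmg2 (-0.39 ± 0.14, adjusted p = 0.043) were also called lower. The inducible genes were not called, at -0.60 ± 0.33, adjusted p = 0.176 for Psmb9, -0.52 ± 0.34, adjusted p = 0.267 for Psmb8 and -0.52 ± 0.23, adjusted p = 0.104 for Psmb10.

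These calls used the spread shared with the other groups. With only acute_noisy and acute_VCV in the fit 0 members were called by limma, while 24 had an unadjusted p under 0.05. Without acute_VCV_040 9 were called, and without acute_VCV_045 14. With the series 14 libraries of acute_noisy alone 9 members were called lower, and with its series 15 libraries alone 30. Number series and group cannot be told apart in this comparison, since acute_VCV was of series 12 and acute_noisy of 14 and 15.

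In uninjured lungs the share of members called between variable and constant ventilation was near that of all genes. Between healthy_noisy and healthy_VCV 3 were called higher and 0 lower, against 4.31% of all genes higher and 6.01% lower, with a median of 0.12. They were Psmc5 (0.45 ± 0.12, adjusted p = 0.0328), Psmd7 (0.38 ± 0.11, adjusted p = 0.0398) and Psmf1 (0.40 ± 0.13, adjusted p = 0.0491), and each call was lost without several single libraries and with the number series as a covariate. Series 15 holds 1 healthy_VCV library, assumed to vary like the other groups when this series was fitted alone, and that fit called 0 members (1 with an unadjusted p under 0.05), which carries little weight. The 3 inducible genes were at 0.68 ± 0.34, adjusted p = 0.163 for Psmb8, 0.34 ± 0.33, adjusted p = 0.484 for Psmb9 and 0.19 ± 0.23, adjusted p = 0.589 for Psmb10.

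After chronic injury no member was called between the modes of ventilation. Between chronic_noisy and chronic_VCV 0 of 42 members were called by limma (7 with an unadjusted p under 0.05) and 0 by edgeR, against 0.563% of all genes higher and 1.86% lower. The member differences ran from -0.46 (Psmd8) to 0.33 (Psmd1), and without chronic_VCV_069 3 members were called lower and without chronic_noisy_075 1.

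The mode effects of acutely injured and uninjured lungs were then compared as a difference of differences. In 24 of 42 members it was called, 23 lower and 1 higher, against 19.4% of all genes lower and 19.6% higher, with a median of -0.50. Variable minus constant ventilation was thus lower after acute injury than without it for Psme2 (-1.50 ± 0.36, adjusted p = 0.00274), Psmb8 (-1.20 ± 0.48, adjusted p = 0.0493), Psmb6 (-1.16 ± 0.27, adjusted p = 0.00253), Psme1 (-0.96 ± 0.32, adjusted p = 0.0195), Psmf1 (-0.94 ± 0.18, adjusted p = 8.22e-04) and Psmd8 (-0.94 ± 0.19, adjusted p = 8.76e-04). Psmb1 (-0.87 ± 0.17, adjusted p = 8.22e-04), Psmd7 (-0.81 ± 0.16, adjusted p = 7.68e-04), Psmc5 (-0.78 ± 0.17, adjusted p = 0.0014) and Psma4 (-0.69 ± 0.17, adjusted p = 0.00382) were also among the lower calls. Psme3 was the one called higher (0.83 ± 0.26, adjusted p = 0.0141), and that call was lost without healthy_noisy_061. Of the 23 lower calls 17 were kept without each library in turn, and that of Psmb8 was lost without healthy_noisy_078 (adjusted p = 0.147) and without 9 others. Of the ribosomal protein genes 45 of 63 were called lower and 0 higher. The same difference between chronically injured and uninjured lungs was called in 10 members, 9 lower and 1 higher, against 14% of all genes lower and 15.7% higher. The calls included Psme2 (-1.02 ± 0.37, adjusted p = 0.041), Psmd8 (-0.86 ± 0.19, adjusted p = 0.00383), Psmc5 (-0.79 ± 0.17, adjusted p = 0.00349), Psmd7 (-0.75 ± 0.16, adjusted p = 0.003) and Psmg2 (-0.68 ± 0.20, adjusted p = 0.0168) as lower and Psme3 (0.83 ± 0.27, adjusted p = 0.0242) as higher. By limma 0 members were called with the number series as a covariate (18 with an unadjusted p under 0.05), 4 without healthy_noisy_061 or chronic_VCV_067, and 5 without chronic_noisy_084.

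Without ventilation few members differed between chronically injured and uninjured lungs. Between control_chronic and control_blank 1 member, Psma4, was called lower (-0.42 ± 0.12, adjusted p = 0.0211) and 0 higher, against 5.55% of all genes lower and 9.3% higher. The call was lost without control_blank_016 (adjusted p = 0.186), and without control_blank_074 6 members were called, 1 higher and 5 lower, and without control_chronic_116 2 lower. The inducible genes were at 0.14 ± 0.32, adjusted p = 0.795 for Psmb8, 0.32 ± 0.31, adjusted p = 0.511 for Psmb9 and -0.12 ± 0.22, adjusted p = 0.747 for Psmb10.

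In chronically injured lungs, part of the core was lower with variable ventilation than without ventilation. Between chronic_noisy and control_chronic 15 members were called lower and 2 higher, against 18.1% of all genes lower and 19.1% higher, with a median of -0.26. The core had 7 of 13 lower, with Psmb5 (-0.56 ± 0.11, adjusted p = 9.25e-04), Psmb6 (-0.48 ± 0.18, adjusted p = 0.0456) and Psmb4 (-0.45 ± 0.12, adjusted p = 0.00751) at the front and Psma7 (-0.42 ± 0.11, adjusted p = 0.00659), Psmb1 (-0.33 ± 0.11, adjusted p = 0.029) and Psmb7 (-0.31 ± 0.09, adjusted p = 0.0135) at the end. In the regulatory particle Psmd11 rose (0.47 ± 0.11, adjusted p = 0.00329), and Psmc5 (-0.35 ± 0.11, adjusted p = 0.0199), Psmd3 (-0.31 ± 0.11, adjusted p = 0.0378), Psmd13 (-0.28 ± 0.10, adjusted p = 0.033) and Psmc2 (-0.27 ± 0.10, adjusted p = 0.038) were called lower. Psmg4 (-0.73 ± 0.18, adjusted p = 0.00386), Psmg2 (-0.72 ± 0.13, adjusted p = 4.85e-04) and Psme2 (-0.61 ± 0.24, adjusted p = 0.0499) were called lower too. In all 5 members were called without chronic_noisy_084, 9 without chronic_noisy_079, 10 without control_chronic_116 and 11 without control_chronic_113, and the calls of Psmb5, Psmd11, Psme3, Psmf1 and Psmg2 were kept without each library in turn.

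Between chronic_VCV and control_chronic 4 members were called lower and 1 higher, against 7.9% of all genes lower and 6.89% higher. Beside Psme3 and Psmf1 these were Psmb2 (-0.48 ± 0.16, adjusted p = 0.0499), Psmb7 (-0.30 ± 0.09, adjusted p = 0.0318) and Psmg2 (-0.40 ± 0.13, adjusted p = 0.0445), and the calls of these 3 were lost without chronic_VCV_069 and without other libraries. In all 2 members were called without chronic_VCV_069, control_chronic_113 or control_chronic_116, and 3 without control_chronic_114, control_chronic_115 or control_chronic_117. On quantile-normalised values 11 were called lower and 1 higher. The comparisons with control_chronic share its 5 libraries and cross number series.

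Between chronically injured and uninjured lungs under the same ventilation few genes of any kind were called, members or not. Between chronic_VCV and healthy_VCV 2 members were called higher and 0 lower, against 1.64% of all genes higher and 0.818% lower: Psmd7 (0.41 ± 0.11, adjusted p = 0.0491) and Psmg2 (0.55 ± 0.14, adjusted p = 0.0446). Both calls were lost without each of the 4 healthy_VCV libraries, and without chronic_VCV_069 6 members were called higher. Between chronic_noisy and healthy_noisy 0 members were called by limma (6 with an unadjusted p under 0.05) and 0 by edgeR, against 2.27% of all genes higher and 2.42% lower. Without chronic_noisy_075 3 were called lower, and without healthy_noisy_078 1 was called higher.

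Genes that control the proteasome were read from a list of 14. In acute_VCV against control_blank 6 of 14 were called higher and 0 lower, with a median of 0.47, against 20.6% of all genes higher and 16.7% lower and a median of 0.07. Maff (2.63 ± 0.30, adjusted p = 2.16e-06) and Mafk (1.15 ± 0.16, adjusted p = 1.25e-05), small Maf partners of Nfe2l1 and Nfe2l2, and Stat3 (1.65 ± 0.23, adjusted p = 1.54e-05), a mediator of interleukin 6 signals, led. Nfe2l2 was not called (0.47 ± 0.21, adjusted p = 0.077). In healthy_VCV against control_blank 8 were called higher and 1 lower, against 29.3% of all genes higher and 28.1% lower, led by Nfe2l1 (1.84 ± 0.25, adjusted p = 4.39e-06), the factor that restores proteasome genes after inhibition, Mafg (1.34 ± 0.17, adjusted p = 1.68e-06) and Ddi2 (1.23 ± 0.20, adjusted p = 2.37e-05), the protease that activates Nfe2l1. The one lower gene was Nfyc (-0.43 ± 0.11, adjusted p = 0.00141), a subunit of the CCAAT-binding factor. Between acute_VCV and healthy_VCV, where 39 proteasome members were higher, 6 of the 14 were called higher and 4 lower. The median was -0.0006, against 26.1% of all genes higher and 26.4% lower. Among the 14, Nfe2l1 (-1.19 ± 0.25, adjusted p = 3.84e-04) and Ddi2 (-0.77 ± 0.20, adjusted p = 0.00252) were lower in acute_VCV, and Maff (1.69 ± 0.28, adjusted p = 3.09e-05) was higher. Between acute_noisy and acute_VCV, Nfe2l1 (0.80 ± 0.25, adjusted p = 0.0244) and Ddi2 (0.75 ± 0.20, adjusted p = 0.0111) were called higher while 24 members were lower. Over the 14 genes, 3 were called higher and 1 lower there, against 11.9% of all genes higher and 12.3% lower.

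Proteasome partners without a Psm symbol were read the same way. Of 15 measured, 5 were called higher and 0 lower in acute_VCV against control_blank, with a median of 0.17 and against 20.6% of all genes higher, among them Zfand2a, a proteasome-binding factor induced by arsenite, Adrm1 (1.00 ± 0.12, adjusted p = 3.76e-06), a ubiquitin receptor of the base, and Ube3c (0.69 ± 0.25, adjusted p = 0.0309), a ligase that works on the proteasome. Between acute_VCV and healthy_VCV 12 were called higher and 1 lower, against 26.1% of all genes higher and 26.4% lower, among them Zfand2a (1.34 ± 0.25, adjusted p = 9.35e-05), the core maturation factor Pomp (0.97 ± 0.14, adjusted p = 5.75e-06) and Shfm1 (0.89 ± 0.13, adjusted p = 6.19e-06), the smallest lid subunit. Pomp (-0.82 ± 0.14, adjusted p = 4.02e-05) and Shfm1 (-0.79 ± 0.13, adjusted p = 2.57e-05) were called lower in healthy_VCV against control_blank, where 2 partners were higher and 5 lower, against 29.3% of all genes higher and 28.1% lower, so the share of lower partners was near that of all genes. Ube3c was called higher there (1.11 ± 0.23, adjusted p = 3.16e-04).

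Of the enzymes that activate ubiquitin, Uba1 rose in acute_VCV against control_blank (0.40 ± 0.14, adjusted p = 0.0304) and Uba6 fell (-0.50 ± 0.17, adjusted p = 0.0218). In the same comparison genes of the proteotoxic stress response gave 4 higher and 0 lower of 9, with a median of 0.39 and against 20.6% of all genes higher, led by Hmox1 (2.55 ± 0.43, adjusted p = 9.34e-05), which degrades haem, the co-chaperone Bag3 (1.02 ± 0.23, adjusted p = 0.00126) and the stress factor Atf4 (1.01 ± 0.24, adjusted p = 0.002). Between acute_VCV and healthy_VCV 8 of the 9 were called higher, with a median of 1.04, against 26.1% of all genes.

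Antigen processing genes and interferon regulators, the setting of the inducible subunits, gave 7 higher and 0 lower of 13 in acute_VCV against control_blank, with a median of 0.64 and against 20.6% of all genes higher. The peptide transporter Tap1 (1.13 ± 0.34, adjusted p = 0.0111) and the factors Irf8 (1.06 ± 0.23, adjusted p = 9.21e-04) and Irf1 (1.02 ± 0.28, adjusted p = 0.00632) led. The 3 inducible subunits had differences from 0.41 to 0.86 in the same comparison and were not called. Whether they differed from these genes was not tested. Between acute_VCV and healthy_VCV, Tap1 (1.11 ± 0.32, adjusted p = 0.00505), Tap2 (1.05 ± 0.25, adjusted p = 0.00133) and Irf1 (0.66 ± 0.26, adjusted p = 0.0391) were called higher, with 6 higher and 0 lower of 13, against 26.1% of all genes higher. In healthy_VCV against control_blank 2 were higher and 2 lower, fewer than the 29.3% and 28.1% of all genes, Irf8 (0.72 ± 0.21, adjusted p = 0.00598) and Ciita (0.56 ± 0.19, adjusted p = 0.0166) among the former and Cd74 (-0.57 ± 0.19, adjusted p = 0.014) among the latter.

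Markers of several cell types also differed between the groups. The summed level of 9 neutrophil genes ran from 3020 to 3407 in control_blank, from 19986 to 32889 in healthy_VCV, from 30573 to 120413 in acute_VCV and from 23814 to 95937 in acute_noisy. Of the 9, 8 were called higher in acute_VCV against control_blank and 8 in healthy_VCV against control_blank, so neutrophil genes rose in both comparisons, while 6 core genes were higher in the first and 9 lower in the second. The summed level of 6 cardiac muscle genes was 9427 to 16874 in control_blank, 1739 to 9106 in healthy_VCV, 328 to 1359 in healthy_noisy, 6061 to 14886 in acute_VCV and 231 to 8337 in acute_noisy. It was thus high in control_blank and acute_VCV, the groups with the highest core averages. Among the other groups the 2 orders differed. The mean cardiac sum was 6306 in healthy_VCV, 2841 in acute_noisy and 864 in healthy_noisy, with core averages of 10.37, 10.77 and 10.43. In the chronic groups the sum was 880 to 1221 in control_chronic, 262 to 618 in chronic_VCV and 2013 to 7800 in chronic_noisy. Between chronic_noisy and control_chronic 3 of 6 cardiac genes were called higher and 7 of 13 core genes lower. The sum of the 8 lung check genes was 1087521 to 2154565 in control_blank, 586185 to 684980 in healthy_VCV and 713408 to 915240 in acute_VCV. That of 5 B cell genes was 2174 to 3148, 526 to 1789 and 1185 to 3311 in these groups, and that of 9 T and NK cell genes was 2148 to 4594, 2204 to 3059 and 3024 to 3317, with 0 of the 9 called in acute_VCV against control_blank by limma. The summed levels of 4 genes of all leukocytes were 13009 to 18501, 16479 to 21590 and 17808 to 21471, those of 4 macrophage genes 193589 to 227840, 141852 to 233873 and 173421 to 190086, and those of 2 erythroid genes 30124 to 53802, 28387 to 47664 and 26991 to 49420. No gene of these lists was at 0 in every library of a group. The part of cell makeup in the proteasome differences was not tested.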

How the data were processed

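The 28 strand-specific libraries of polyadenylated RNA from rat lung were read on a HiSeq 2000, per the labels' protocols. Per the submitters' processing notes, CASAVA 1.8.0, BWA, bedtools 2.11 and DESeq 1.8.3 were used with build rn4, and per the file header genes were those of Ensembl 67. The deposited signal values are counts that the authors divided by 1 size factor per library: all values came out as whole reads within 0.1, and recovered depth was 6024093 to 31923838 reads. The fewest reads of a member in any library ranged from 105 for Psmb6 to 1462 for Psmd2. Sampling noise is therefore larger for the members of low level.

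The deposited values of 14908 genes with a mean of at least 10 were taken as log2(value + 1), and limma 3.58.1 (R 4.3.3, trend and robust settings) fitted the 8 groups together. It gave 14 comparisons of groups and 2 differences between them. Tests were two-sided, with Benjamini-Hochberg adjustment over all 14908 genes and a threshold of 0.05, and differences are on the log2(value + 1) scale. edgeR 4.0.16 (quasi-likelihood, recovered reads) was an alternative. The code was checked on simulated data. Promoter motifs were searched in RefSeq sequence (GRCr8) with Python 3.11.15.

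The proteasome genes, the gene lists and the tests were chosen with earlier results of these data known. Values in every library are given for the inducible genes, their constitutive counterparts, Psme1, Psme2 and the leading called gene of each class in acute_VCV against control_blank; Psmf1 and Psmg2 were plotted after their values were seen. Otherwise up to 3 called genes at each end of a class were named, with others chosen after their values were seen. The count over one further list of genes is not reported here. Alternatives were a pseudocount of 10, no filter, quantile normalisation, edgeR with TMM or the authors' size factors, fits of only the groups compared, the number series as covariate, series 15 only, and single libraries left out.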

Additional observations from a re-analysis of the deposited data

Results flagged for a closer look

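In groups of 4 or 5 libraries, single libraries stood far from the rest of their group, judged by the gap to the nearest library as a share of the group's range. Chance alone marks about 1 in 20 groups, and 10 of 135 groups were marked over 45 items. Psmb8 was 3765 in acute_noisy_047 against 1107 to 1521 in the other 3 libraries, and its log2 ratio to Psmb5 was 1.26 there against -0.46 to -0.19. In acute_noisy_053 Psmd6 was 1180 against 1685 to 1783. In healthy_VCV, Psmd12 was 1159 in library 062 against 1262 to 1277, and Psme4 was 4128 in library 057 against 2872 to 3036. In control_chronic_116 Psmd9 was 691.4 against 470.3 to 521.5, and Psme1 was 5378 against 3338 to 3764. In control_chronic_117 Psmb4 was 2855 against 3348 to 3540, and Psme3 was 2582 against 2110 to 2177. Psmd12 was 892.9 in control_chronic_113 against 1108 to 1188.

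The difference between variable and constant ventilation itself differed between acutely injured and uninjured lungs in 24 members by limma. It was -1.50 for Psme2, -1.20 for Psmb8, -1.16 for Psmb6, -0.96 for Psme1, -0.94 for Psmf1, -0.94 for Psmd8, -0.87 for Psmb1, -0.81 for Psmd7, -0.78 for Psmc5 and -0.69 for Psma4 on the log2 scale, and 0.83 for Psme3. Between chronically injured and uninjured lungs it differed in 10 members, with -1.02 for Psme2, -0.86 for Psmd8, -0.79 for Psmc5, -0.75 for Psmd7, -0.68 for Psmg2 and 0.83 for Psme3. Both differences cross number series, and that of the chronic arm called 0 members with the number series as a covariate.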

How the results depend on the processing

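Over all settings, 221 calls of a gene in a comparison were recomputed 3348 times: 2712 kept their direction and side of the threshold, 636 fell past it and 0 reversed. Fits of only the groups compared lost 77 of 221 calls, edgeR with TMM 35, quantile normalisation 25, no filter 13, edgeR with the authors' size factors 5 and a pseudocount of 10 lost 1. The number series as a covariate lost 31 of 53 calls that could be tested. Of the 53, 21 were calls of acute_VCV - control_blank, and all 31 losses lay in other comparisons. Because acute_VCV and control_blank are of series 12 alone, the term cannot change their differences, and calls kept there say nothing about the series. Series 15 alone lost the 17 calls of acute_noisy - healthy_noisy, and its other comparisons rest on a lone healthy_VCV library. The cause of these losses was not tested. The group means of the inducible to constitutive ratios moved by less than 1 SD with a pseudocount of 10 and without single libraries. Leaving out 1 library cannot move a group mean by as much as the group's SD, and a pseudocount of 10 is small beside these levels. That result therefore says nothing about stability.

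Counts of called members moved by more than 1.5 times as follows, each against the value first given. Quantile normalisation gave 10 against 21 in acute_VCV - control_blank, 2 against 1 in control_chronic - control_blank, 12 against 5 in chronic_VCV - control_chronic, 2 against 0 in chronic_noisy - healthy_noisy, 5 against 3 in healthy_noisy - healthy_VCV and 1 against 0 in chronic_noisy - chronic_VCV. edgeR with TMM gave 3 in control_chronic - control_blank, 2 in chronic_VCV - control_chronic, 11 against 17 in chronic_noisy - control_chronic, 1 against 2 in chronic_VCV - healthy_VCV and 1 in healthy_noisy - healthy_VCV, and with the authors' size factors 3 in chronic_VCV - control_chronic. Without a filter the counts were 3 in chronic_VCV - control_chronic and 1 in chronic_VCV - healthy_VCV. Fits of only the groups compared gave 5 against 16 in acute_noisy - control_blank, 6 against 15 in healthy_noisy - control_blank, 3 in chronic_VCV - control_chronic, 0 against 17 in acute_noisy - healthy_noisy, 1 in chronic_VCV - healthy_VCV, 6 in healthy_noisy - healthy_VCV and 0 against 24 in acute_noisy - acute_VCV. With the number series as a covariate 1 was called in acute_noisy - healthy_noisy, and 0 in chronic_VCV - healthy_VCV, in healthy_noisy - healthy_VCV and in the chronic difference (10 before). In series 15 alone 0 were called in acute_noisy - healthy_noisy, and also in chronic_VCV - healthy_VCV and healthy_noisy - healthy_VCV, where the lone healthy_VCV library was assumed to vary like the other groups and the counts say little about stability. Without the 2 control_chronic libraries of lowest depth the counts were 0 in control_chronic - control_blank, 2 in chronic_VCV - control_chronic and 9 in chronic_noisy - control_chronic. With the acute_noisy libraries of series 14 only, a split chosen after the data were seen, 28 were called in acute_noisy - healthy_noisy and 9 in acute_noisy - acute_VCV, and with those of series 15 only 0 in acute_noisy - healthy_noisy.

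Leaving out 1 library at a time gave 14 to 23 members in acute_VCV - control_blank, 12 to 17 in acute_noisy - control_blank, 21 to 27 in healthy_VCV - control_blank, 7 to 16 in healthy_noisy - control_blank, 0 to 6 in control_chronic - control_blank, 2 to 7 in chronic_VCV - control_chronic, 5 to 20 in chronic_noisy - control_chronic and 34 to 39 in acute_VCV - healthy_VCV. It gave 5 to 24 in acute_noisy - healthy_noisy, 0 to 6 in chronic_VCV - healthy_VCV, 0 to 3 in chronic_noisy - healthy_noisy, 0 to 2 in healthy_noisy - healthy_VCV, 9 to 28 in acute_noisy - acute_VCV, 0 to 3 in chronic_noisy - chronic_VCV, 20 to 28 in the acute difference and 4 to 10 in the chronic difference.

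No paired analysis was possible because library numbers differ in every group. A fit of series 14 alone was not run, since no comparison has both groups in it. The covariate could be fitted only where series 12 or 18 is not set against another series. Its term came from acute_noisy and healthy_VCV, which hold both series 14 and 15. It was assumed to be the same in every group, also in comparisons whose groups share no series. Over all genes, TMM moved the share of called genes that were higher from 48.2% to 63.6% in acute_noisy - healthy_noisy, 54.5% to 42.1% in healthy_noisy - control_blank, 62.6% to 38.4% in control_chronic - control_blank and 48.4% to 61.8% in chronic_noisy - healthy_noisy. The authors' size factors moved it to 52.2% in control_chronic - control_blank and from 66.8% to 77.2% in chronic_VCV - healthy_VCV. Quantile normalisation moved the median of all genes to -0.11 in healthy_VCV - control_blank and -0.14 in the acute difference. Leaving out the 2 control_chronic libraries of lowest depth lost 12 of 23 calls, but it also made the group smaller, so limits from depth and from group size cannot be told apart.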
